A study of Mus musculus with 4 samples.

Results

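Vomeronasal receptors are the pheromone receptors of the mouse, and H3K9me2 was measured at the gene windows of 196 of them in the medial layer of the aorta. They were taken as every row of the promoter table whose gene symbol begins with Vmn1r or Vmn2r followed by a digit, which gave 121 Vmn1r (V1R) and 75 Vmn2r (V2R) windows out of 26354. The libraries came from the aortic media of male C57Bl/6J mice, in which vascular smooth muscle cells (VSMCs) are the main cell type. The adventitial and endothelial layers had been removed by hand, and the tissue was fixed directly after dissection. In each of 2 experiments, v102 and v134, chromatin immunoprecipitated with an antibody to H3K9me2 (ChIP) was sequenced beside input chromatin, which gives 2 libraries of each kind. All mice were of 1 strain and 1 sex with no treatment, so that ChIP against input is the comparison this design holds. The labels do not state the age of the mice or how many were pooled in a library. No library from the vomeronasal organ was analyzed here, and no expression was measured, so the values below describe chromatin of the artery only.

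V1R and V2R are separate families of G protein-coupled receptors, and each sensory neuron of the vomeronasal organ transcribes very few of them. V1R neurons lie in the apical layer of the epithelium and signal through the G protein subunit Gαi2 (Gnai2), whereas V2R neurons lie in the basal layer, signal through Gαo (Gnao1) and detect mainly peptides and proteins. The receptor genes stand in large arrays of similar copies. H3K9me2 is a histone mark of silent chromatin that is deposited by the methyltransferases Ehmt1 and Ehmt2 and is known to cover broad domains.

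A window reaches 1 kb to each side of a start site. For V2R genes the annotated start of the gene and the first coding base lay a median of 104 bp apart, but for V1R genes this distance had a median of 4083 bp and exceeded 1 kb in 109 of 120 genes (GENCODE vM21, GRCm38). The sources used here do not name the annotation that placed the windows. Over these 109 windows the ranks of the input reads followed the uniqueness of the sequence around the first coding base more closely (Spearman rho 0.613) than around the GENCODE start (rho 0.398), but Pearson's r was the other way round (0.286 and 0.428). Of the 31 such genes without a row, 4 had a window over 90% unique when placed on the first coding base and 14 when placed on the GENCODE start. The placement was thus not settled. Positions below refer to the first coding base for vomeronasal and olfactory receptor genes and to the GENCODE start for all other rows. GC content is therefore compared below between windows placed by different rules. The median GC content of the Vmn1r windows was 37.3% on the first coding base and 37.7% at the GENCODE start. For V1R the counts may therefore describe chromatin around the coding start rather than around a distant first exon. Positions were found for 120 Vmn1r and 73 Vmn2r windows, all of protein-coding genes. No member window overlapped that of another member, and 1 overlapped the window of any other row of the table.

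The 5 sequences below show what the upstream side of these windows looks like at members with high and with low H3K9me2 levels. They are RefSeq sequences (GRCm38.p6) that end at or just before the start site, written 5′ to 3′ on the gene's strand, with bases that GENCODE places in an exon left out. Capitals mark CG dinucleotides and the letters TATAAA, read on either strand. Vmn1r81 (chr7:12260682-12260929, minus strand), Vmn2r103 (chr17:19773113-19773362, plus strand) and Vmn2r71 (chr7:85615212-85615396, plus strand) were among the 6 highest members of their subfamilies. Vmn1r4 (chr6:56956263-56956460, plus strand) and Vmn2r19 (chr6:123308083-123308332, plus strand) were among the 4 lowest.
Vmn1r81: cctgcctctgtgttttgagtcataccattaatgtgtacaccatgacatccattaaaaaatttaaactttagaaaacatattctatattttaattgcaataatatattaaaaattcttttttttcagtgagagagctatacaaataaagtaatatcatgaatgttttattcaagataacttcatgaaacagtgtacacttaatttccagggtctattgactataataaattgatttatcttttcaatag
Vmn2r103: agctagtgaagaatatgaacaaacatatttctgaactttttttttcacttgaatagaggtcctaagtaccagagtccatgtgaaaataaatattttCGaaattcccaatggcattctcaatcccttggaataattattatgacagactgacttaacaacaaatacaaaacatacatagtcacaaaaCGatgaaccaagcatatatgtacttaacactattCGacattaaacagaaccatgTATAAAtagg
Vmn2r71: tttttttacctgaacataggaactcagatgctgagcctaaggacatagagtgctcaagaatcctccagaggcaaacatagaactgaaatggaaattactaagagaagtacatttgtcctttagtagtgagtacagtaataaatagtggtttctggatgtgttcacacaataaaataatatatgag
Vmn1r4: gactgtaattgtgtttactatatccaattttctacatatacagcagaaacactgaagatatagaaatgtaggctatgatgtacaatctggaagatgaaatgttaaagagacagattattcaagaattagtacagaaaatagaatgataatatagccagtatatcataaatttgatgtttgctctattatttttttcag
Vmn2r19: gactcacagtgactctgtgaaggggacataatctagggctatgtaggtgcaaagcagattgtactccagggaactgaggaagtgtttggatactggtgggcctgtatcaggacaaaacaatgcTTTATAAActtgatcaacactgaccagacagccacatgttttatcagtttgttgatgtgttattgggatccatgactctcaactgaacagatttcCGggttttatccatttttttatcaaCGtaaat

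In these stretches the GC content was 25.4% at Vmn1r81, 31.2% at Vmn2r103, 35.1% at Vmn2r71, 27.8% at Vmn1r4 and 41.2% at Vmn2r19. The 3 high sequences held 0, 3 and 0 CG dinucleotides and the 2 low ones 0 and 2, and neither CG nor TATAAA separated them. So few sequences cannot settle whether high and low members differ. The rank of Vmn2r71 also rests on very few input reads in v102, and the experiments differed in sign at Vmn1r4. Sparse CG was general in both subfamilies. Of the RefSeq promoters of 104 Vmn1r and 71 Vmn2r members, 44.2% and 38.0% held no CG in the 250 bases before the start, against 8.36% of 27025 promoters of all genes. TATAAA, searched on both strands, stood in 37.5% of the Vmn1r, 23.9% of the Vmn2r and 12.9% of all promoters. TAATTA, a palindrome that is the core of many homeodomain binding sequences, stood in 11.5%, 18.3% and 4.98%. Both words hold only A and T, and the 2 kb windows of Vmn1r and Vmn2r are poor in GC (medians 37.3% and 34.6%, other rows 51.0%). Whether the shares differ at like base composition was not tested. The RefSeq start lay exactly on the first coding base in 75 of the 104 Vmn1r and 59 of the 71 Vmn2r promoters, so these are bases before a coding start more often than before a mapped transcription start.

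H3K9me2 levels at vomeronasal receptor windows were about 3-fold those of the rest of the table, and V1R and V2R were nearly alike. Summed over the 121 Vmn1r windows, experiment v102 gave 1401 ChIP and 1863 input reads and v134 gave 2476 and 3909. The 75 Vmn2r windows gave 760 ChIP and 992 input reads in v102 and 1433 and 2285 in v134. All other rows together had 160072 ChIP reads to 616245 input reads in v102 and 225696 to 1078155 in v134. The ChIP/input ratio of Vmn1r was thus 0.752 in v102 (95% Wilson interval 0.702 to 0.806) and 0.633 in v134 (0.602 to 0.666). That of Vmn2r was 0.766 (0.697 to 0.842) and 0.627 (0.587 to 0.670). The other rows stood at 0.260 and 0.209. These intervals, like all those below, are computed from read counts and cover counting error only. The reads carry no molecular identifiers and the handling of duplicates is not given, so even this error may be understated. Divided by the ratio of all other rows in the same experiment, Vmn1r was 2.96 ± 0.0924-fold and Vmn2r 2.97 ± 0.0328-fold (mean ± SD, n = 2 experiments). In bulk chromatin, more cells with the mark and more mark per cell cannot be told apart. Olfactory receptor windows, the largest receptor family of the table with 1024 rows, stood at 3.33 ± 0.174-fold.

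At single windows the log2 ratio of ChIP to input was computed with each library scaled to its total over the table and 1 read added to each count. The median Vmn1r window had 11 and 20 ChIP reads against 15 and 33 input reads in v102 and v134. The median Vmn2r window had 10 and 18 ChIP reads against 14 and 30 input reads. Other rows had more input (medians of 20 and 37 reads) and fewer ChIP reads (4 and 5). The median log2 ratio of Vmn1r was 1.49 in v102 and 1.53 in v134, and that of Vmn2r was 1.55 and 1.65. For the other rows it was -0.13 and -0.39. In the ranking of all 26354 rows by the mean of both experiments, the median Vmn1r window stood at the 89.5th percentile and the median Vmn2r window at the 90.8th. A value above 0 in both experiments was found at 113 of 121 Vmn1r and 71 of 75 Vmn2r windows and at 32.3% of all rows. The upper 25% of rows in both experiments held 89 Vmn1r (73.6%) and 58 Vmn2r windows (77.3%), against 17.8% of all rows.

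**Figure D1:**
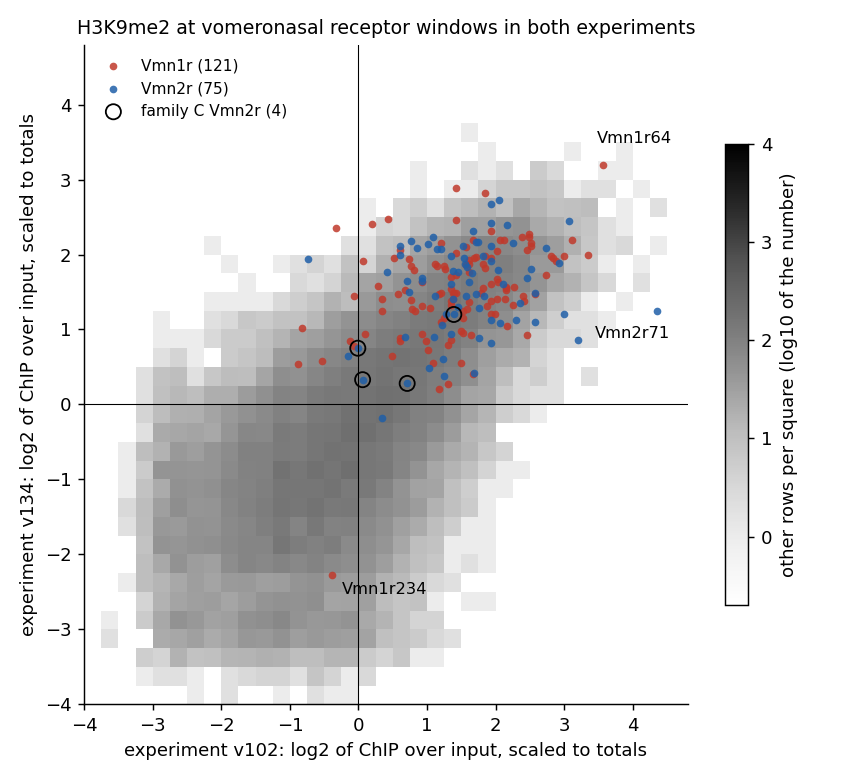
Log2 ratio of H3K9me2 ChIP to input, scaled to library totals, in experiment v102 (x axis) and v134 (y axis). Grey squares count the other rows of the table on a log10 shade, red points are the 121 Vmn1r and blue points the 75 Vmn2r windows, and circles mark the 4 family C members. Nearly all receptor points lie in the upper right, with medians of 1.49 to 1.65, and Vmn1r234 lies alone in the lower left.

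The median of Vmn1r was lower than that of Vmn2r by 0.05 in v102 and by 0.13 in v134. Per experiment the differences were -0.05 and -0.13 (mean -0.09, SD 0.05), small beside the quartiles of each subfamily (1.10 to 1.85 for Vmn1r and 1.29 to 1.92 for Vmn2r). A single member typically differed between its 2 experiments by more than that, with a median SD of 0.39 for Vmn1r and 0.45 for Vmn2r. With the dependence on GC content removed (described below) the difference changed sign to 0.15. The order of the subfamilies was therefore not settled by these data.

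ChIP counts were then compared with input counts window by window, with the quasi-likelihood test of edgeR over all 26354 rows and a Benjamini-Hochberg adjusted p under 0.05. The test called 95 of 121 Vmn1r windows (78.5%) and 64 of 75 Vmn2r windows (85.3%) above input, against a background of 18.6% of all rows. The median log2 fold change was 1.66 for Vmn1r and 1.72 for Vmn2r, with the median of all rows at -0.354. No member was called below input, where 17.0% of all rows stood. At an unadjusted p under 0.05 the count below input was 1, where 6542 of all 26354 rows stood. DESeq2 called 0 members below input, but it called only 27 of all 8471 rows with an adjusted p below. With the experiment as a term (replicate block), 79 Vmn1r and 57 Vmn2r windows were above input (background 15.8%), each of them among those called without it. With library totals in place of TMM scaling the counts were 89 and 60 (background 16.3%), and 1 Vmn1r window, Vmn1r234, was called below (background 21.5%). DESeq2 gave an adjusted p to 95 Vmn1r and 57 Vmn2r windows and called 65 and 41 of them above input, against 36.1% of the 8471 rows to which it gave one.

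The 26 Vmn1r windows that were not called had mean log2 ratios of -1.34 to 1.38 and the 11 such Vmn2r windows 0.09 to 1.14, and these ranges overlap those of the called windows, which began at 0.92 and 1.00. The median summed ChIP count was 17 reads in the Vmn1r windows without a call and 35 in those with one. The summed input counts differed less, with medians of 44.5 and 50 reads. Where each input library held at least 20 reads, 21 of 25 Vmn1r and 9 of 10 Vmn2r windows were above input (background 17.5%). Leaving mitochondrial rows out of the fit gave 96 and 65 (background 18.9%). With 2 libraries against 2, an exact permutation test of a single window cannot give a two-sided p below 0.333, so the calls rest on the spread that edgeR shares across rows.

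Among Vmn1r, the window of Vmn1r64 on chromosome 7 stood highest. It had 27 ChIP reads to 8 input reads in v102 and 55 to 28 in v134, log2 ratios of 3.57 and 3.19, and it was the only named member at the 100th percentile of the table after rounding. Its log2 fold change was 3.45 (SE 0.36, Benjamini-Hochberg adjusted p = 1.34e-17, edgeR quasi-likelihood). Vmn1r81 had 15 ChIP to 5 input reads and 21 to 25, for a mean log2 ratio of 2.67. Vmn1r179 had 15 to 6 and 30 to 31, and its mean of 2.66 could not be told from that of Vmn1r81 within the spread of either (SDs of 0.66 and 0.95). Both were above input in each experiment. Vmn1r55 (24 to 11 and 34 to 41 reads), Vmn1r70 (28 to 14 and 42 to 53) and Vmn1r61 (12 to 6 and 13 to 16) followed at 2.48, 2.40 and 2.39. All 6 of these genes, which were picked by their level, lie on chromosome 7, as do 38 of the 120 Vmn1r genes with a row and a position.

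At the low end stood Vmn1r234 on chromosome 17, the one receptor window with a log2 ratio under 0 in both experiments. It had 4 ChIP to 24 input reads in v102 and 1 to 45 in v134, log2 ratios of -0.39 and -2.28, while each of its 75-base words occurs at a single place in the genome (100% unique). Its log2 fold change of -1.50 (SE 0.67) missed the threshold with an adjusted p of 0.0639 in the edgeR test. With library totals in place of TMM it was -1.64 and passed (adjusted p = 0.0388). Vmn1r19 (1 to 13 and 7 to 25 reads) and Vmn1r188 (1 to 10 and 5 to 18) were below 0 in v102 and above 0 in v134. Vmn1r4 (3 to 26 and 14 to 34) did the same, so none of these 3 had a direction common to both experiments. The Vmn1r windows with the most input, Vmn1r13 and Vmn1r225, were closer to the middle of the family. Vmn1r41 (25 to 30 and 37 to 45) had the same summed input as Vmn1r225, 75 reads, and a mean log2 ratio of 1.82. Vmn1r13 had 21 ChIP to 21 input reads and 27 to 56, with a log2 fold change of 1.62 (SE 0.36, adjusted p = 0.000117 by edgeR). Vmn1r225 had 14 to 24 and 30 to 51, with 1.49 (SE 0.37, adjusted p = 0.00059). Vmn1r85 and Vmn1r89, receptors known to respond to sulfated steroids, had 8 to 22 and 26 to 45 reads and 5 to 19 and 35 to 31 reads. Both were called above input (log2 fold changes of 1.27 and 1.89), the call of Vmn1r85 was lost with DESeq2 (adjusted p = 0.114), and the log2 ratio of Vmn1r89 was 0.20 in v102 against 2.41 in v134.

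Among Vmn2r, Vmn2r71 and Vmn2r51 on chromosome 7 had the highest means, 2.79 and 2.76. For Vmn2r71 the mean rested on very few reads, since it had 15 ChIP to 2 input reads in v102 and 16 to 33 in v134, log2 ratios of 4.35 and 1.24. Vmn2r51 had 10 to 4 and 21 to 18 reads and log2 ratios of 3.07 and 2.45, so that the experiments stood closer together. Its log2 fold change was 2.75 (SE 0.49, adjusted p = 6.65e-07 by edgeR). Vmn2r69 (17 to 8 and 17 to 22 reads), Vmn2r82 (6 to 3 and 17 to 19), Vmn2r103 (12 to 11 and 34 to 24) and Vmn2r72-ps (9 to 9 and 18 to 13) completed the highest 6, with means of 2.31 to 2.41. The suffix of the last marks an older symbol of a pseudogene, and no position was assigned to it. The Vmn2r windows with the most input were Vmn2r93 (12 to 18 and 31 to 56 reads) and Vmn2r108 (13 to 24 and 16 to 42). Vmn2r93 had a log2 fold change of 1.50 (SE 0.37) and was called above input. Vmn2r108 had 1.07 (SE 0.41, adjusted p = 0.0317 by edgeR), and its call was lost with the replicate block (adjusted p = 0.0508), with library totals (0.0707) and with DESeq2 (0.151). Vmn2r116, the receptor for the male tear peptide ESP1, had 7 to 11 and 15 to 24 reads and a log2 fold change of 1.59 (SE 0.50, adjusted p = 0.0079 by edgeR and 0.0436 with the replicate block), a call lost with DESeq2 (adjusted p = 0.0638). Vmn2r88 had 4 to 7 and 7 to 28 reads and was not called (log2 fold change 0.61, SE 0.61).

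The lowest Vmn2r windows included members of family C, a small branch of V2R (Vmn2r1 to Vmn2r7) whose proteins are made in most basal neurons beside another V2R. Of this branch, 4 genes have a row, all on chromosome 3. Vmn2r2 had 2 ChIP to 10 input reads in v102 and 7 to 29 in v134. Vmn2r7 had 5 to 22 and 9 to 27, and Vmn2r1 had 5 to 13 and 8 to 34. Vmn2r3, with 10 to 15 and 15 to 32 reads, was the only one of the 4 called above input (log2 fold change 1.35, SE 0.46, adjusted p = 0.0130 by edgeR), and with DESeq2 it was not (adjusted p = 0.085). Pooled, the 4 windows had a ChIP/input ratio of 0.367 in v102 (0.226 to 0.595) and 0.320 in v134 (0.223 to 0.458). The other 71 Vmn2r windows stood at 0.792 (0.719 to 0.872) and 0.644 (0.603 to 0.689), and 63 of them were called. Only 22 and 39 ChIP reads stand behind the family C values. The 4 windows lie in 1 cluster of 643 kb, so that branch and location cannot be told apart. Their median GC content was 40.0%, against 34.4% in the other Vmn2r windows. In relation to all other rows, family C was at 1.47 ± 0.0817-fold and the remaining Vmn2r at 3.06 ± 0.0214-fold (mean ± SD, n = 2 experiments). The comparison was made knowing these values, and no test was run on it. The further low windows were Vmn2r86 (2 to 8 and 2 to 15 reads) and Vmn2r19 (3 to 16 and 13 to 41), neither of them in family C.

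The receptor windows lie in arrays, and the pooled level varied from array to array. Chaining start sites less than 1 Mb apart gave 22 clusters, of which 11 had at least 5 members and held 167 of the windows with a position. The pooled log2 ratio was above 0 in both experiments in all 22. Among the 11 large clusters it was highest on chromosome 7 between Vmn1r55 and Vmn1r65 (7 Vmn1r windows over 862 kb), at 2.70 in v102 and 2.24 in v134. There the summed ChIP/input ratio was 1.20 (1.01 to 1.42), and all 7 windows were called above input. Without its highest window the remaining 6 still had means of 1.83 to 2.48. It was lowest on chromosome 6 between Vmn1r32 and Vmn1r39 (6 Vmn1r windows over 252 kb), at 0.91 and 1.08, where the summed ratio was 0.461 (0.367 to 0.580) and 2 of 6 were called. Both clusters hold Vmn1r genes only. They were picked as the highest and lowest of the 11 by this same level, and the distance between them was not tested.

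Some of the other large clusters stood close together. The largest cluster, of 14 Vmn1r and 18 Vmn2r windows on chromosome 17, and the one of 26 Vmn1r windows on chromosome 13 had pooled log2 means of 1.38 each (summed ratios 0.598 and 0.594). In the mixed cluster on chromosome 7 from Vmn2r51 to Vmn1r89, the summed ratio was 0.824 (0.761 to 0.891) and all 26 windows were called above input. All 12 windows of the V2R cluster from Vmn2r65 to Vmn2r79 on chromosome 7 and all 10 of the V2R cluster on chromosome 5 were called as well. In contrast, 14 of 22 were called between Vmn1r4 and Vmn1r31 on chromosome 6. Neighbors within a cluster had related levels, with a Pearson correlation of 0.355 (Spearman 0.340) over 171 neighboring pairs in the mean log2 ratio. When the first neighbor was taken from v102 and the second from v134, which share no library, it was 0.277 (Spearman 0.270). Both are descriptions across windows, which share local base composition.

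**Figure D2:**
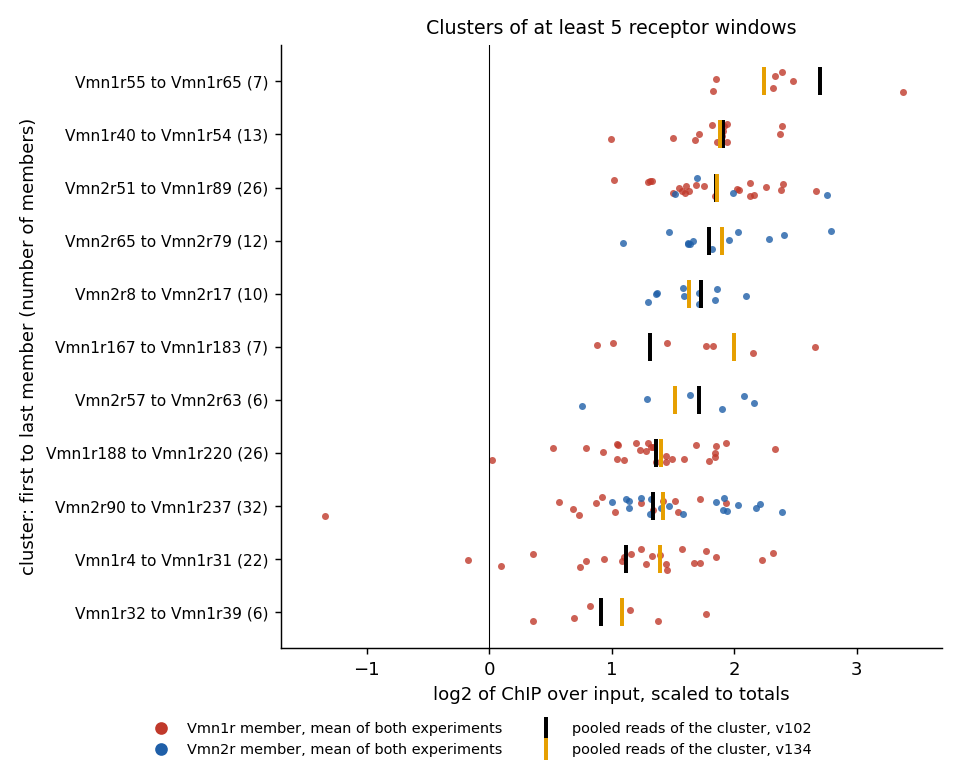
Mean log2 ratio of ChIP to input (x axis) of each receptor window in the 11 clusters with at least 5 members, ordered by their pooled level (y axis). Red points are Vmn1r and blue points Vmn2r windows, and black and orange bars give the pooled reads of a cluster in v102 and v134. The chromosome 7 cluster at the top lies at 2.70 and 2.24, the chromosome 6 cluster at the bottom at 0.91 and 1.08.

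Other rows that stand between the receptors also had H3K9me2 levels above those of the rows outside. The 11 large clusters enclose 71 of them, with a median log2 ratio of 1.22 (range -2.48 to 3.47), and 53.5% of them were called above input. They include 3 rows with vomeronasal receptor names outside the pattern (V1ra8, V1rd19 and Vmn2r-ps54), without which the median was 1.15 and 52.9% were called. Over the receptor windows of the same clusters the median was 1.59 and 83.8% were called. The 368 other rows within 1 Mb outside the clusters had a median of -0.04, and 21.2% were called, close to the 18.6% of all rows. The ChIP/input ratio was 0.777 and 0.654 at the receptors (v102 and v134), 0.597 and 0.445 at the rows between them, and 0.358 and 0.262 outside. The enclosed rows were not uniform. All 15 olfactory receptor windows among them were called above input (median 1.64), whereas of 12 zinc finger windows 4 were called (median 0.62). The enclosed rows had a median GC content of 45.4%, the receptors 36.2% and the rows outside 49.3%. With the GC trend removed (described with the GC content of the windows), the enclosed rows had the higher median, 0.42 against 0.31 for the receptors and -0.09 for the rows outside. In the 5 clusters that enclose at least 3 other rows, the receptor median was the higher one in 5 without this correction and in 3 with it. In these clusters the enclosed rows did not always exceed the rows outside. Their uncorrected medians inside and outside were 0.42 and -0.54 (Vmn2r90 to Vmn1r237) and 0.73 and 0.62 (Vmn2r57 to Vmn2r63). From Vmn2r65 to Vmn2r79 they were 1.63 and -0.29. The order was reversed from Vmn1r4 to Vmn1r31 (-1.29 and -0.24) and from Vmn2r51 to Vmn1r89 (0.60 and 1.86).

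GC content moved with the H3K9me2 ratio across the whole table, and vomeronasal receptor windows lie at its low end. The median GC content of the 2 kb window was 37.3% for Vmn1r, 34.6% for Vmn2r and 51.0% for other rows, and the median number of CG dinucleotides was 7.5, 7 and 57. Over the 22299 rows with a position the mean log2 ratio fell with GC content (Pearson r -0.553, Spearman rho -0.545, across windows of the same 4 libraries). A lowess trend drawn through rows outside the receptor families gave a log2 ratio of 0.87 at the GC content of the median Vmn1r window and 1.04 at that of the median Vmn2r window. Of the 120 Vmn1r windows 103 lay above this trend, as did 59 of 73 Vmn2r windows and 91.0% of the olfactory receptor windows. Over all rows with a position, at any GC content, the share was 52.4%. The median of other rows, unlike the trend, includes the olfactory receptor windows (median GC content 38.8%, median log2 ratio 1.73). Around 35% and 37% GC the trend (1.006 and 0.887) ran below that median (1.481 and 1.364). The 52.4% is therefore not the share above the trend at like GC content. With the trend removed, the subfamily medians fell to 0.30 and 0.15, against -0.31 for the other rows at any GC content. The median percentiles fell to 72.2 and 67.0 (olfactory receptors 0.61 and percentile 81.7). A large part of the distance to the other rows was thus shared by other windows of like GC content, and what the remainder rests on was not tested. Within the 193 receptor windows no relation to GC content was visible (r -0.010, rho -0.017). Of the 4 family C windows 3 lay below the trend.

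**Figure D3:**
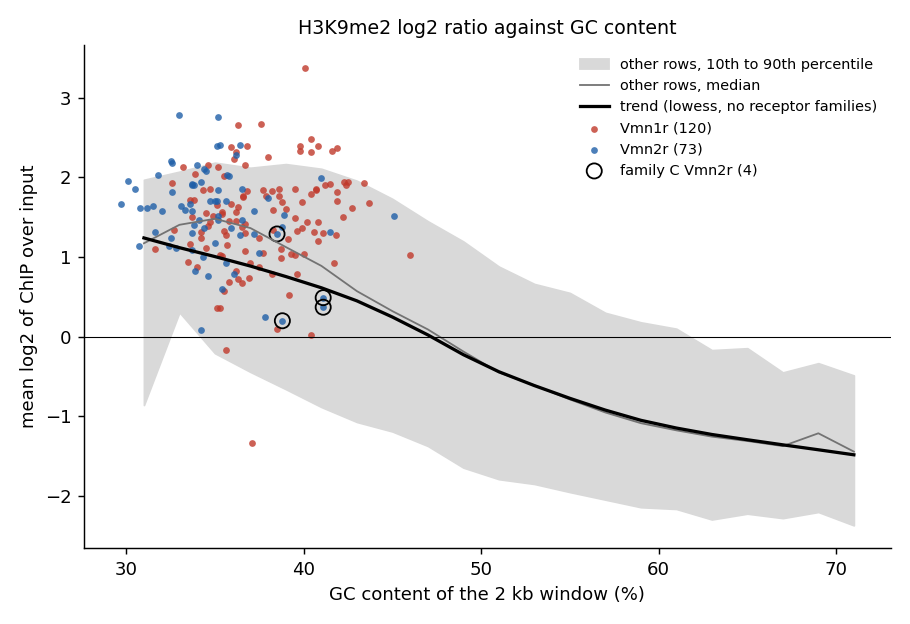
Mean log2 ratio of ChIP to input (y axis) against the GC content of the 2 kb window in percent (x axis). The grey band holds the 10th to 90th percentile of other rows, olfactory receptors among them, and the grey line is the median of the same rows. The black line is the trend without receptor families. Red (120 Vmn1r) and blue (73 Vmn2r) points gather at about 30 to 45% GC, mostly above the black line, and 3 of the 4 circled family C windows lie below it.

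Many vomeronasal receptor genes of the annotation have no row in the table analyzed here, and sequence uniqueness differed between those with and without one. GENCODE vM21 lists 330 symbols of the same pattern, and 329 of them could be placed. Uniqueness was taken as the share of 75-base words of the window, the length of 1 read, that occur at a single place in the assembled genome. Its median was 98.5% in the 120 Vmn1r genes with a row and 28.6% in the 88 without, and 99.4% in the 73 Vmn2r genes with a row and 40.3% in the 48 without. Of 189 windows over 90% unique 174 had a row, of 57 between 50 and 90% 19 did, and of 83 under 50% none did. These counts match symbols only, and Vmn2r68 and Vmn2r72, both 100% unique and counted without a row, may be the genes of the rows Vmn2r68-ps and Vmn2r72-ps. On chromosome 7 this left 36.9% of 103 Vmn1r and 43.1% of 51 Vmn2r genes, whereas all 14 Vmn1r genes of chromosome 17 and all 11 Vmn2r genes of chromosome 5 had a row. The table keeps rows with more than 20 summed input reads (lowest value 21), and the receptors described are those with mostly unique sequence. The levels at the repeated copies were not analyzed here.

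Among the members with a row, uniqueness moved with input reads (Spearman rho 0.580, Pearson r 0.333, 193 windows) but hardly with the mean log2 ratio (rho -0.052, r -0.049). Restricting to windows with at least 95% unique words left 91 Vmn1r and 58 Vmn2r windows with medians of 1.45 and 1.62. Members with more input reads had somewhat lower log2 ratios (r -0.239, rho -0.235, 196 windows), a relation in which the input enters both measures. The order of single members was only loosely shared by the experiments. The log2 ratios of v102 and v134 correlated with r 0.411 over Vmn1r (rho 0.378) and 0.197 over Vmn2r (rho 0.167), against 0.688 over all rows. The levels of the families are thus far better measured than the rank of a member within its family.

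**Figure D4:**
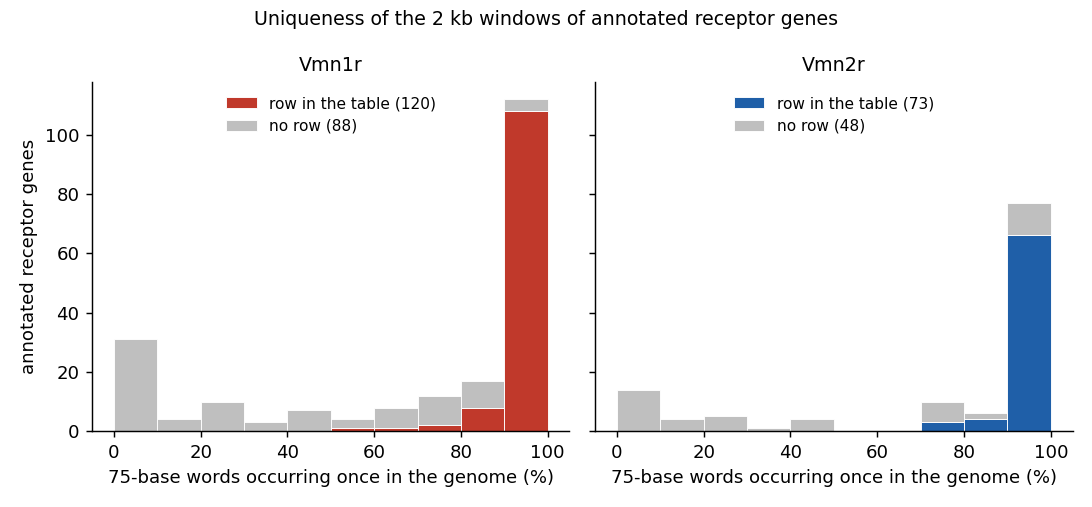
Number of annotated receptor genes (y axis) by the percent of 75-base words of their window that occur at a single place in the genome (x axis), for Vmn1r (left) and Vmn2r (right). Colored parts of the bars are genes with a row in the table (120 and 73) and grey parts genes without (88 and 48). Rows are found above 50% only and gather in the bin above 90%, where 174 of 189 genes have one.

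Other genes of vomeronasal signaling were compared from a fixed list of 60 genes, of which 56 have a row. Of these 17 were above input and 6 below, against 18.6% and 17.0% of all rows. Formyl peptide receptors are a further receptor family of vomeronasal neurons and leukocytes, and 4 of the 5 on the list were above input. Fpr-rs3 had 22 ChIP to 21 input reads in v102 and 32 to 33 in v134, with a log2 fold change of 2.24. Fpr-rs4 (19 to 17 and 33 to 30 reads), Fpr-rs6 (10 to 11 and 19 to 24) and Fpr-rs7 (14 to 13 and 23 to 21) had fold changes of 2.39, 1.98 and 2.36 on the log2 scale. Fpr3 (4 to 12 and 5 to 33) was not called. The leukocyte receptors of the family, Fpr1 (3 to 19 and 5 to 64) and Fpr2 (4 to 12 and 5 to 31), are not on the list and were not called either, so 4 of 7 rows of the family were above input.

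Of the 10 genes for pheromone ligands and carrier proteins, 8 were above input and none below, where 18.6% and 17.0% of all rows stood. They include the major urinary proteins Mup5 (35 to 57 and 71 to 93 reads, log2 fold change 1.72), Mup21 (15 to 14 and 21 to 30, 1.98) and Mup3 (8 to 16 and 24 to 21, 2.01) and the lipocalin Lcn11 (25 to 10 and 17 to 49, 1.86). Of 10 genes for the H2-M molecules that accompany V2R proteins and for B2m, 3 were above input, namely H2-M9 (26 to 10 and 24 to 39 reads), H2-M11 (24 to 21 and 26 to 35) and H2-M1 (14 to 21 and 27 to 37). The V2R pseudogenes Vmn2r-ps54 (13 to 13 and 20 to 28 reads) and Vmn2r-ps113 (9 to 27 and 21 to 40) were also above input, and Vmn2r-ps113 lost its call with the replicate block (adjusted p = 0.0577 by edgeR).

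The genes that act downstream of the receptors did not share these levels in the same libraries. None of 15 transduction genes was above input and 4 were below (median log2 ratio -1.27), against a background of 17.0% below input. With the replicate block 1 was below, where 2187 of all 26354 rows stood in place of 4484. The channel gene Trpc2 had 1 ChIP to 26 input reads in v102 and 4 to 38 in v134, and the G protein genes Gnai2 and Gnao1 had 7 to 33 and 4 to 40 and 2 to 16 and 5 to 24. None of these 3 was called. Of 14 transcription factor and wiring genes none was above and 2 were below without the block (median -1.02), a share under the 17.0% of all rows. With the replicate block the count below input over the whole list was 2 in place of 6. Several of these genes, Gnai2 among them, are used in many cell types, and their windows were richer in GC (55.3% at Gnai2 and 51.0% at Trpc2). For comparison, of 8 smooth muscle contractile genes 1 was above input, 3 were below and 4 neither, against 18.6% above and 17.0% below of all rows. With the replicate block 1 was above and 1 below. The 8 genes ranged from Myh11 (0 ChIP reads in both experiments against 19 and 41 input reads) to Smtn (15 to 22 and 34 to 58, called above input).

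**Figure D5:**
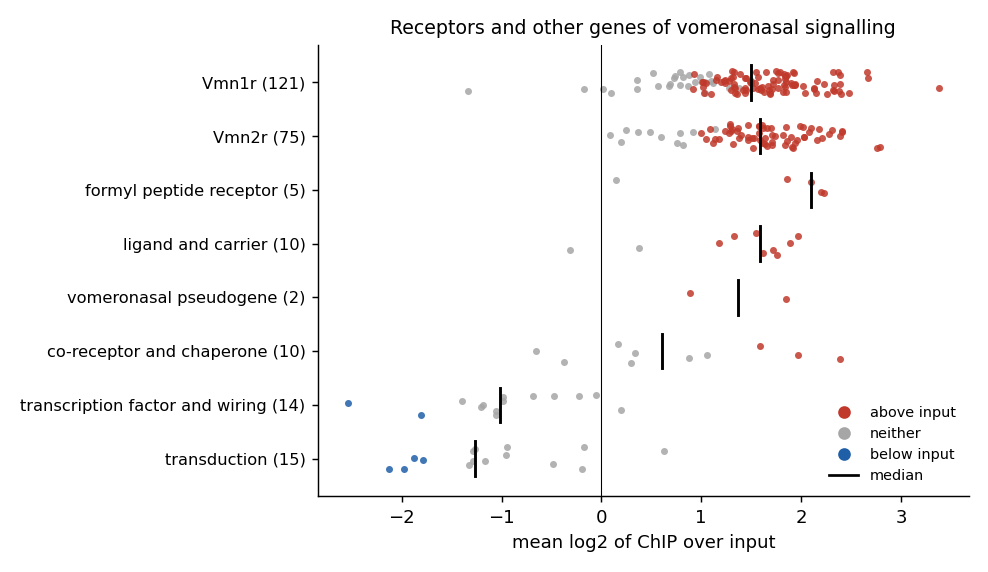
Mean log2 ratio of ChIP to input (x axis) for the receptor subfamilies and for 56 other genes of vomeronasal signaling by role (y axis, number of windows in parentheses). Red points were above input, blue points below and grey points neither by edgeR's test, and black bars are medians. Receptors, formyl peptide receptors and ligands lie to the right (medians of 1.50 to 2.10), transduction and transcription factor genes to the left (-1.27 and -1.02).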

How the data were processed

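H3K9me2 ChIP-seq of aortic medial tissue gave 2 ChIP and 2 input libraries. Per the labels and the methods of the study, the authors trimmed paired-end reads of 75 bp (Trim Galore 0.4.2, cutadapt 1.9.1), aligned them to GRCm38 (Bowtie2 2.2.7), and counted reads within 1 kb of each start site with SeqMonk. The deposited values are raw read counts per library, their sums, and the ratio of the summed columns, ChIP over input, which the authors did not scale for library size. The sums and the ratio were not used. The annotation release and the handling of duplicate reads are not given in the sources used here. Over the table the ChIP libraries hold 162233 (v102) and 229605 (v134) reads and the inputs 619100 and 1084349, which are not library depths.

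Counts were tested with edgeR 4.0.16 (R 4.3.3; TMM, quasi-likelihood, Benjamini-Hochberg over all rows) and, as an alternative, DESeq2 1.42.0. The edgeR step was tested on simulated data with a dispersion of 0.02. It called 89 of 100 rows raised 4-fold, 4 of 50 raised 2-fold, 14 of 50 lowered 4-fold and 5 of 26154 unchanged. Decreases of 4-fold were thus found less often than increases of that size. The log2 ratio used library totals over the table and 1 added read. Ratio intervals are Wilson intervals of the ChIP share of reads. The experiment number pairs each ChIP with its input, since the labels tie each input to its ChIP experiment, and the changes from v102 to v134 in ChIP and input correlated with r 0.104 over rows. The labels call the experiments independent but do not name the animals behind them, so p-values measure the spread between these libraries, which may in part be technical.

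Positions came from GENCODE vM21, which placed 22299 of 26354 symbols, and sequence from GRCm38.p6. The GC trend was lowess with a fraction of 0.3. Named members were the 6 highest and 4 lowest of each subfamily by mean log2 ratio, the 2 with most input, members of known ligand or branch, and up to 12 pathway genes past the test. The other genes given with values (Vmn1r41, Fpr1, Fpr2, Fpr3, Trpc2, Gnai2, Gnao1, Myh11, Smtn, V1ra8, V1rd19 and Vmn2r-ps113) lie outside this rule and were named after their values were seen. Members and lists were chosen with earlier results of these data known. Markers of smooth muscle, leukocytes, endothelium, adventitia and vomeronasal neurons were read at promoters only. There 2 of 20 were above input and 5 below (2 and 1 with the replicate block), against 18.6% and 17.0% of all rows.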

Additional observations from a re-analysis of the deposited data

How the results depend on the processing

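The counts above input changed by more than 1.5 times only where fewer windows were tested. Under a minimum of 20 reads per input library, 21 of 25 Vmn1r, 9 of 10 Vmn2r and 7 of 27 pathway windows were above (background 17.5%). Of these pathway windows 3 were below, where 1678 of all 13993 rows stood. DESeq2 called 41 of the 57 Vmn2r windows it gave an adjusted p (background 36.1%). Below input, library totals gave 1 Vmn1r window (background 21.5%). The pathway count of 6 became 2 with the replicate block (2187 of all 26354 rows) and 0 with DESeq2 (27 of all 8471 rows). The Vmn1r median of 1.50 became 1.62 with 5 added reads, 1.32 with 20 reads in each input, 1.63 with TMM sizes, 1.45 at 95% uniqueness, and 0.30 without the GC trend (0.29 with windows on the gene start). The Vmn2r median of 1.59 became 1.69, 1.47 and 1.72 under the first 3 of these, and 0.15 (0.18) without the GC trend. The difference of -0.09 became -0.15 with 20 reads in each input, -0.17 at 95% uniqueness and 0.15 (0.11) without the GC trend. The pooled fold over other rows of 2.95 (Vmn1r) and 2.94 (Vmn2r) became 2.66 and 2.65 without mitochondrial rows, and for Vmn2r 3.59 with 20 reads in each input and 2.99 with TMM sizes. Leaving out an experiment gave ranges of 1.49 to 1.53 and 1.55 to 1.65 for the medians, -0.13 to -0.05 for the difference, and 2.90 to 3.03 and 2.95 to 3.00 for the folds. The log2 fold changes of Vmn1r188 (-0.10 with library totals) and Vmn1r19 (-0.13 with library totals, -0.02 with the replicate block) changed sign around 0. Of 169 values for 42 single promoters, 159 kept direction and side of the threshold, 6 lost their call, 1 gained it and 3 changed sign. The replicate block moved no count above input by over 1.5 times. The uniqueness, family C and gene-start settings were added after seeing the data. The cause of these shifts was not tested. With 10 to 33 reads at a median receptor window, single members are imprecise.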
